A study of Homo sapiens with 6 samples.

Results

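The genes described here are 34 genes of peroxisomes and of fatty acid oxidation: 12 peroxins, 8 peroxisomal enzymes and transporters, and 14 mitochondrial genes of fatty acid oxidation. They were found by symbol in GENCODE release 29, and all 34 were among the 58735 gene IDs of the FPKM table. FPKM is the number of sequenced fragments scaled to exon length and to the size of the library. The list was drawn up after PEX10 and ACADL had been seen to be low in the C4-2B MDVR knockdown libraries. The members were thus chosen by the knockdown values of that line, which are given below as a description, with no test of the members.

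The study sequenced messenger RNA of 2 human prostate cancer cell lines, in 6 libraries. C4-2B MDVR cells descend from C4-2B and resist the prostate cancer drug enzalutamide, and H660 (NCI-H660) is a line from a neuroendocrine prostate cancer. Both lines had 3 libraries, from cells given a control siRNA, PLXND1 siRNA 1 or PLXND1 siRNA 2, so the 2 knockdown libraries of a line share 1 control. PLXND1 encodes Plexin D1, a receptor for semaphorins, and the series asks what it does in the neural plasticity of treatment-resistant tumours. Each line stands for its kind alone, each control is 1 library, and the labels do not say that libraries came from separate cultures, so the spread measured may be technical.

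Peroxisomes shorten very long and branched fatty acids. Peroxins build the organelle: PEX3, PEX16 and PEX19 place membrane proteins, PEX5 and PEX7 carry enzymes in through the docking proteins PEX13 and PEX14, and a ligase ring with PEX2 and PEX10 marks PEX5 for its return, which the ATPase PEX6 helps to drive. Mitochondria oxidise the bulk of fatty acids, which enter by the carnitine shuttle and meet acyl-CoA dehydrogenases of different chain-length preference. The electrons of that step pass through electron transfer flavoprotein to the respiratory chain.

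PLXND1 was at 7.40 FPKM in C4-2B MDVR with the control siRNA, 1.57 FPKM with siRNA 1 and 3.10 FPKM with siRNA 2. In H660 it was at 9.13, 7.62 and 7.54 FPKM, a smaller drop. The libraries held 17655802 to 24105369 recovered fragments. The luminal marker KLK3 was at 77.5 to 228 FPKM in C4-2B MDVR and at no more than 0.10 FPKM in H660. The neuroendocrine marker CHGA was at 45.8 to 50.6 FPKM in H660 and at no more than 0.08 FPKM in C4-2B MDVR, and PTPRC and PECAM1, of blood cells and vessels, were at no more than 0.04 FPKM throughout. COL1A1, a collagen gene of mesenchymal cells that the cultures should not hold, was at 3.16 to 5.06 FPKM in C4-2B MDVR and 1.17 to 1.44 FPKM in H660, and its part in the results was not tested. The mitochondrial genome's share of fragments was 3.38% in the control of C4-2B MDVR, and 6.83% to 9.64% in the 5 others.

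**Figure D1:**
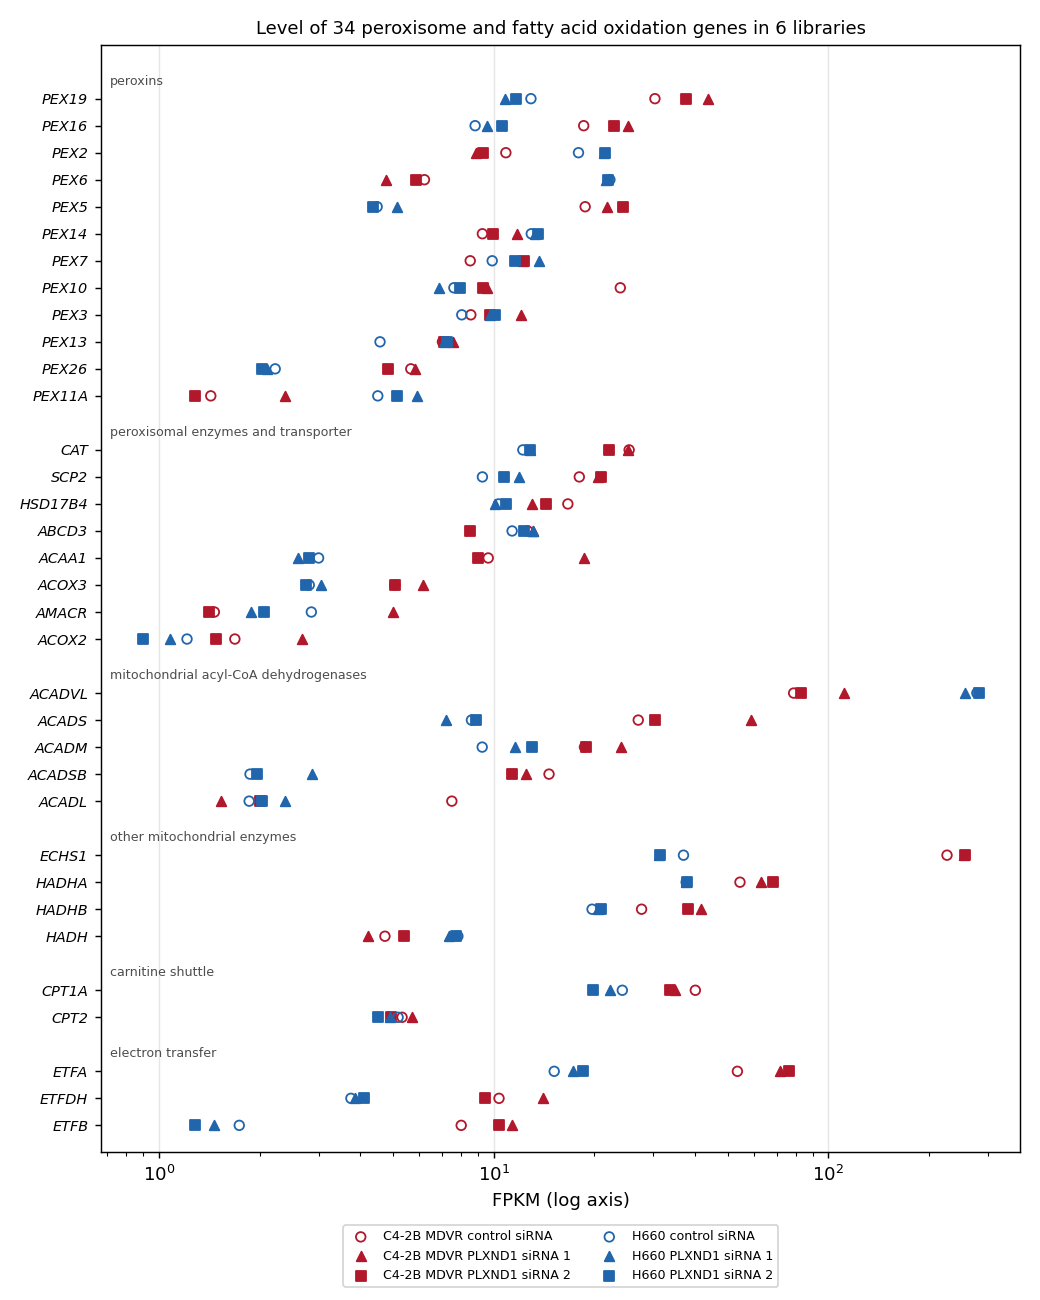
FPKM (log axis) of each of the 34 genes in each of the 6 libraries, by role and by mean level within a role; open circles are control libraries, triangles siRNA 1 and squares siRNA 2, red C4-2B MDVR and blue H660. ECHS1 and ACADVL are the 2 highest genes in every C4-2B MDVR library, and ACADVL is the highest in every H660 library.

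The first comparison was between the lines, over 3 libraries each, and most members were lower in H660. Of 34 members, all 34 passed the filter on low values (a mean of at least 1 FPKM in 1 of the lines). By limma on log2(FPKM + 1), 11 members (32.4%) were called lower in H660, against 17.9% of the 15638 genes tested, and 3 members (8.82%) were called higher, against 20.1%. A call needed an adjusted p under 0.05 and at least a 2-fold difference. By adjusted p alone 26 members passed (76.5%), against 69.8% of all genes, and for both directions and the 2-fold limit the share of all genes was 38.0%. The median difference of the members was −0.71 log2 units, and that of all genes tested 0.00. The 3 H660 libraries lay wholly below the 3 C4-2B MDVR libraries for 21 members (61.8%, against 37.4% of all genes) and wholly above for 6 (17.6%, against 37.1%, or 74.5% of all genes in either direction). This comparison also uses the C4-2B MDVR libraries through which PEX10 and ACADL were chosen, so for these 2 genes it is not independent of the choice. Neither was called at the 2-fold limit. PEX10 is counted among the 26 and the 21, and both genes are in the median. The lines differ in origin and culture as well as in lineage, and these cannot be told apart here. Rescaling the libraries to the same summed FPKM of protein-coding nuclear genes put the median of all genes at 0.24 log2 units. The members' median was then −0.67 relative to that of all genes, where it was −0.70 before. With the rescaling 9 members were called lower and 4 higher, among 2128 and 3917 of the 15638 genes tested. Before it, 2803 and 3143 genes were called.

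**Figure D2:**
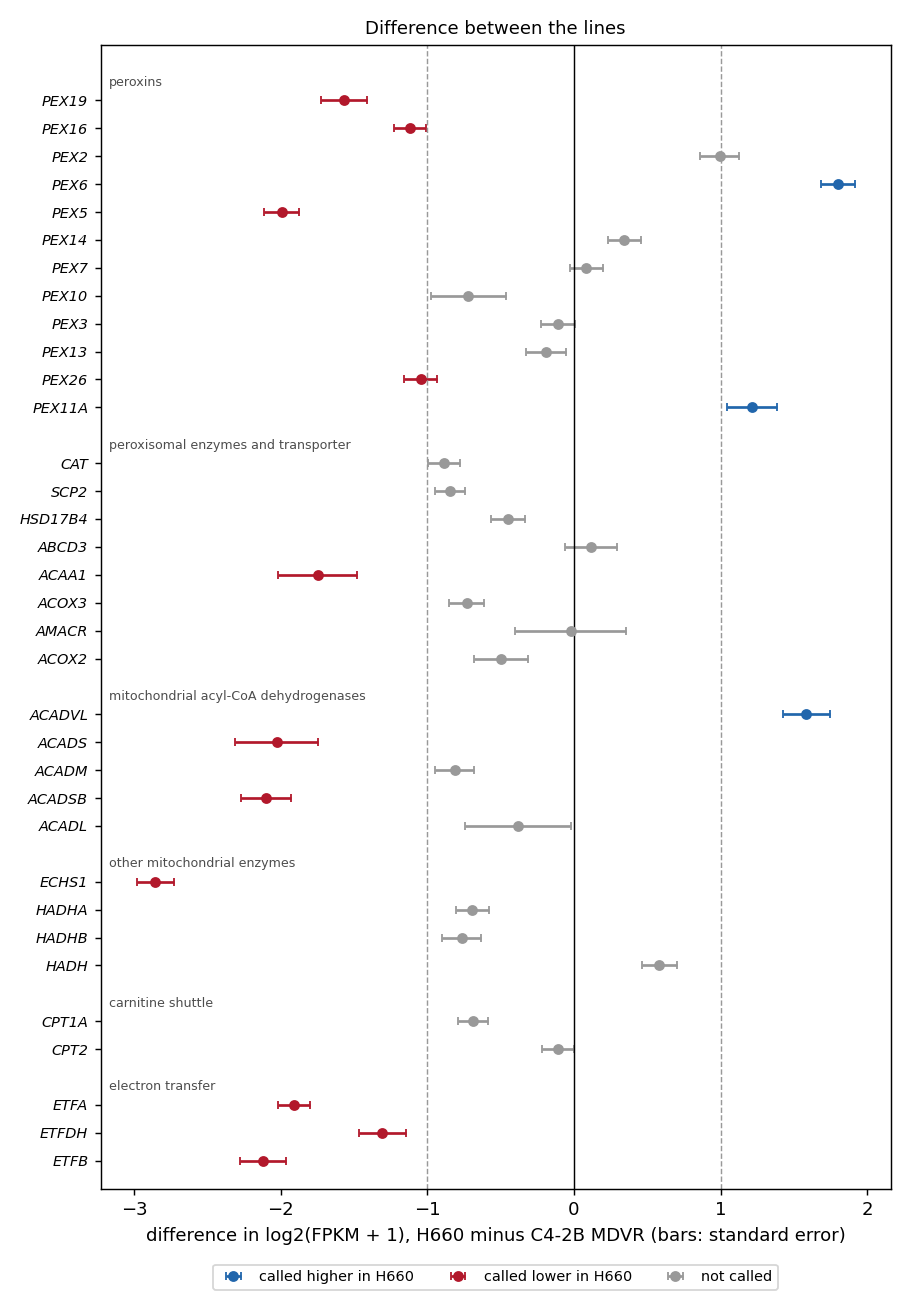
Difference in log2(FPKM + 1) between H660 and C4-2B MDVR for each member, with its standard error from the fit of 6 libraries; dashed lines mark a 2-fold difference on that scale and colours mark the called genes. The 3 electron transfer genes and ECHS1 lie left of the dashed line, while PEX6, ACADVL and PEX11A lie right of it.

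Among the 12 peroxins, 4 were called lower in H660 (33.3%, against 17.9% of all genes) and 2 higher (16.7%, against 20.1%). The lines did not overlap for 5 that were lower (41.7%, against 37.4%) and 4 that were higher (33.3%, against 37.1%). PEX5, the receptor that brings enzymes with the common targeting signal into the peroxisome, was at 18.8, 21.8 and 24.3 FPKM in the control, siRNA 1 and siRNA 2 libraries of C4-2B MDVR and at 4.49, 5.16 and 4.36 FPKM in those of H660. The lines did not overlap, and the difference was −1.99 ± 0.12 log2 units (SE; limma adjusted p = 3.39e-05). PEX7, the receptor for the rarer signal, was at 8.52 to 12.3 FPKM in C4-2B MDVR and 9.91 to 13.7 FPKM in H660, and the lines overlapped (0.08 ± 0.11).

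The genes that place membrane proteins were split. PEX19, the shuttle for those proteins, was at 30.3 to 43.8 FPKM in C4-2B MDVR and at 10.8 to 12.9 FPKM in H660 (−1.57 ± 0.16, limma adjusted p = 0.000268). PEX16, another of these genes, was at 18.6 to 25.2 and 8.81 to 10.6 FPKM (−1.12 ± 0.11, limma adjusted p = 0.000241). With quantile normalization or the rescaling PEX16 stayed past the p threshold but under 2-fold, at −0.98 and −0.84. PEX3, the third of them, was at 8.55 to 12.1 and 8.04 to 10.1 FPKM, and the lines overlapped.

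The genes that return PEX5 to the cytosol differed in opposite directions. PEX6, an ATPase, was at 6.22, 4.78 and 5.88 FPKM in C4-2B MDVR and at 22.3, 21.7 and 21.9 FPKM in H660, 3.90 times as high (1.80 ± 0.12, limma adjusted p = 4.48e-05). PEX26, which anchors PEX6 at the membrane, was lower in H660, at 4.85 to 5.82 and 2.04 to 2.23 FPKM (−1.04 ± 0.11, limma adjusted p = 0.000355), and it too fell short of 2-fold with the rescaling (−0.82) and when the siRNA 1 library of C4-2B MDVR was left out (−0.98).

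The members of the ligase ring, PEX2 and PEX10, differed in direction too. PEX2 was at 8.88 to 10.9 FPKM in C4-2B MDVR and 17.9 to 21.6 FPKM in H660, and at 1.00 ± 0.13 log2 units it was just short of 2-fold on that scale, with a ratio of mean FPKM of 2.10 (limma adjusted p = 0.000878). It was past 2-fold with a pseudocount of 0.1 (1.06), with each of 3 other scalings (1.12 to 1.27) and without the control of either line (1.16 each). Leaving out either control gives the same estimate, from the knockdown libraries alone. PEX10 differed by −0.72 ± 0.26, and the size hung on the control libraries: 23.9 against 7.61 FPKM in the controls, but 9.53 and 9.31 against 6.85 and 7.96 FPKM in the knockdown libraries. Of the docking proteins, PEX14 was at 9.26 to 11.7 and 13.0 to 13.6 FPKM, under 2-fold, and PEX13 overlapped between the lines. PEX11A, which promotes division of peroxisomes, was at 1.28 to 2.38 FPKM in C4-2B MDVR and 4.51 to 5.90 FPKM in H660 (1.21 ± 0.17, limma adjusted p = 0.00112).

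Of the 8 peroxisomal enzymes and transporters, 1 was called lower (12.5%, against 17.9% of all genes) and none higher (against 20.1%). For 6 of them the H660 libraries lay wholly below (75.0%, against 37.4%). ACAA1, the thiolase that ends each round of peroxisomal oxidation, was at 9.64, 18.7 and 8.98 FPKM in C4-2B MDVR and at 3.001, 2.61 and 2.81 FPKM in H660 (−1.75 ± 0.27, limma adjusted p = 0.00158). In the annotation 21.2% of its exon length is shared with other genes, nearly all of it with DLEC1 on the other strand (19.7%). DLEC1 was at no more than 1.16 FPKM in any library. CAT, which encodes catalase, the enzyme that removes the hydrogen peroxide of the first step, was at 22.1 to 25.4 and 12.2 to 12.9 FPKM, a difference of −0.88 ± 0.11. SCP2, whose product is a thiolase and a sterol carrier, was at 18.0 to 21.0 and 9.26 to 11.9 FPKM (−0.85 ± 0.10). ACOX3, an oxidase for branched chains, was at 5.07 to 6.17 and 2.74 to 3.05 FPKM (−0.73 ± 0.12). These 3 passed the p threshold and not the 2-fold mark.

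HSD17B4, the multifunctional enzyme between oxidase and thiolase, was at 13.1 to 16.7 and 10.1 to 10.9 FPKM (−0.45 ± 0.11). ACOX2, an oxidase of bile acid intermediates, was at 1.48 to 2.68 and 0.895 to 1.21 FPKM. ABCD3, a transporter of branched fatty acids, overlapped between the lines, as did AMACR, a racemase of branched fatty acids known as a marker of prostate cancer. AMACR was low in both, at 1.47, 4.998 and 1.41 FPKM in C4-2B MDVR and 2.86, 1.89 and 2.06 FPKM in H660. In the annotation 64.8% of its exon length is shared with other genes on the same strand, mostly the read-through gene C1QTNF3-AMACR, which was at no more than 0.145 FPKM. How fragments in shared exons were assigned is not stated, so the level of AMACR is uncertain.

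The mitochondrial acyl-CoA dehydrogenases parted by gene: of 5, 2 were called lower in H660 (17.9% of all genes) and 1 higher (20.1%). ACADVL, which takes very long chains, was at 78.8, 111 and 82.9 FPKM in C4-2B MDVR and at 278, 256 and 281 FPKM in H660. Means were 91.0 ± 17.8 and 272 ± 13.4 FPKM (SD, n = 3, control and knockdown libraries together). H660 was 2.99 times as high (1.58 ± 0.16, limma adjusted p = 0.000273). ACADS, for short chains, was at 27.0, 58.9 and 30.4 against 8.59, 7.23 and 8.88 FPKM (−2.03 ± 0.28, limma adjusted p = 0.00103). ACADSB, which acts on short branched chains from isoleucine, was at 14.6, 12.5 and 11.3 against 1.87, 2.88 and 1.96 FPKM (−2.10 ± 0.17, limma adjusted p = 0.000108). ACADM, for medium chains, lay wholly lower in H660 too, at 18.7 to 24.0 against 9.25 to 13.0 FPKM, but under 2-fold (−0.81 ± 0.13).

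The make-up of the family therefore differed between the lines. ACADVL held 53.5% to 57.0% of the 5 genes' summed FPKM in the C4-2B MDVR libraries and 91.4% to 92.8% in the H660 libraries. The 4 other genes summed to 62.7 to 96.9 FPKM in C4-2B MDVR and to 21.6 to 25.9 FPKM in H660. FPKM divides by the summed exon length of all transcripts, which is longer than any 1 transcript, so shares between genes are approximate.

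**Figure D3:**
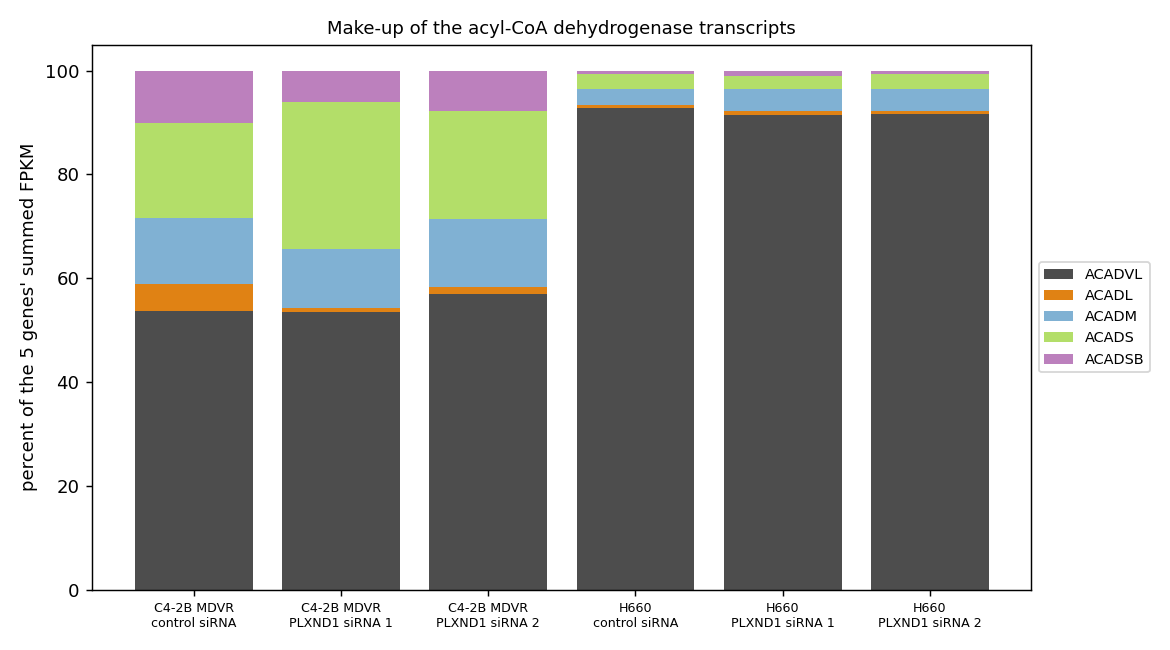
Share of each acyl-CoA dehydrogenase gene in the summed FPKM of the 5 genes (stacked bars, percent), 1 bar per library. ACADVL fills 53.5% to 57.0% of the 3 C4-2B MDVR bars and 91.4% to 92.8% of the 3 H660 bars, and ACADL shrinks from 5.12% in the C4-2B MDVR control to 0.734% and 1.38% with the siRNAs.

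Of 4 genes for the steps after the dehydrogenases, 3 lay wholly lower in H660 (75.0%, against 37.4% of all genes). The other, HADH, lay wholly higher (25.0%, against 37.1%). Only 1 was called, as lower (25.0%, against 17.9% of all genes). That gene, ECHS1, had the lowest difference of all 34 members. ECHS1, the hydratase for short chains, lies on chromosome 10 from 133362480 to 133373689 (GRCh38, minus strand). It was at 226, 255 and 256 FPKM in C4-2B MDVR and at 36.9, 31.2 and 31.3 FPKM in H660. Means were 246 ± 16.8 and 33.2 ± 3.27 FPKM (SD, n = 3, control and knockdown libraries together), a ratio of 7.41. No library came near the other line (−2.85 ± 0.13, limma adjusted p = 1.18e-05). HADHA and HADHB, the 2 subunits of the trifunctional protein for long chains, lie on opposite strands of chromosome 2, and their annotated 5′ ends overlap, with the start of each 1556 bases inside the other gene. HADHA was at 54.4 to 68.3 against 37.5 to 37.9 FPKM (−0.69 ± 0.11), and HADHB was at 27.7 to 41.7 against 19.7 to 20.9 FPKM (−0.77 ± 0.13). HADH, the dehydrogenase for shorter chains, went the other way, at 4.22 to 5.40 against 7.38 to 7.82 FPKM (0.58 ± 0.12). These 3 passed the p threshold and were under 2-fold.

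All 3 electron transfer genes were called lower in H660, as were 17.9% of all genes. ETFA, the alpha subunit of electron transfer flavoprotein, was at 53.5, 71.6 and 76.0 FPKM in C4-2B MDVR and at 15.2, 17.3 and 18.4 FPKM in H660 (−1.91 ± 0.11, limma adjusted p = 2.9e-05). ETFB, the beta subunit, was at 8.004, 11.3 and 10.3 against 1.74, 1.46 and 1.28 FPKM (−2.12 ± 0.16, limma adjusted p = 7.75e-05). ETFDH, which hands the electrons to ubiquinone, was at 10.4, 14.0 and 9.40 against 3.75, 3.85 and 4.11 FPKM (−1.31 ± 0.16, limma adjusted p = 0.000591). In the annotation 13.8% of the exon length of ETFDH lies over exons of other genes on the other strand. Most of that is PPID (10.9%), which was at 9.65 to 15.2 FPKM. The sum of the 3 genes was 71.9 to 97.0 FPKM in the libraries of C4-2B MDVR and 20.7 to 23.8 FPKM in those of H660.

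Neither of the 2 carnitine shuttle genes was called, against 38.0% of all genes in either direction. CPT1A, whose enzyme controls entry of long chains into mitochondria, was at 40.1, 34.8 and 33.7 FPKM in C4-2B MDVR and at 24.2, 22.2 and 19.8 FPKM in H660 (−0.69 ± 0.10, limma adjusted p = 0.00136, under 2-fold). CPT2, the inner-membrane enzyme, was at 4.92 to 5.70 and 4.50 to 5.19 FPKM, and the lines overlapped (−0.11 ± 0.11).

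Other genes of the pathway were called in both directions. Of 91 genes tested from 5 further lists, 22 were called lower in H660 (24.2%, against 17.9% of all genes) and 17 higher (18.7%, against 20.1%), with a median of −0.20. Of 5 other peroxins, 1 was called lower and 2 higher (17.9% and 20.1% of all genes). Of 39 tested peroxisomal enzymes, transporters and membrane proteins, 10 were called lower (25.6%) and 6 higher (15.4%), against the same shares of all genes. ACSL1, which activates fatty acids, was at 63.6 to 81.2 and 10.4 to 11.9 FPKM, and IDH1 was at 124 to 200 and 29.5 to 37.5 FPKM. PIPOX, which oxidises pipecolic acid, was at 0.364 to 0.514 FPKM in C4-2B MDVR and 9.83 to 11.6 FPKM in H660 (3.01 ± 0.11, limma adjusted p = 6.72e-06), and PXMP4 and FAR2 were higher too, by 2.72 and 1.72 log2 units.

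Of 16 tested genes in the further list around mitochondrial fatty acid oxidation, 5 were called lower in H660 (31.2%, against 17.9% of all genes) and 3 higher (18.8%, against 20.1%). The list is one of pathway role, and where each product sits in the cell was not looked at. ACSL3, which activates fatty acids, was at 155, 145 and 66.1 FPKM in C4-2B MDVR and 5.17 to 5.65 FPKM in H660 (−4.17 ± 0.31, limma adjusted p = 8.44e-05). ACSL4, which prefers arachidonic acid, was at 0.015 to 0.0542 FPKM in C4-2B MDVR and 5.61 to 9.54 FPKM in H660 (3.11 ± 0.16, limma adjusted p = 1.91e-05). ACAA2, the mitochondrial thiolase, was higher in H660 at 6.83 to 8.15 against 37.1 to 39.3 FPKM (2.19 ± 0.11, limma adjusted p = 1.86e-05), the reverse of the peroxisomal thiolase gene ACAA1. DECR1, which handles unsaturated chains, was higher by 1.47, while CPT1C and HSD17B10 were lower by 1.54 and 1.17 log2 units.

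In H660, where PLXND1 fell only from 9.13 FPKM to 7.62 and 7.54 FPKM, no member was called with PLXND1 knockdown. Limma called 0 of the 15638 genes tested (0.0%), with 647 (4.14%) at an unadjusted p under 0.05, among which was 1 of the 34 members, PEX13. Limma's voom on the recovered fragments also called 0, with 560 at that level. The members' changes ran from −0.37 to 0.55 log2 units with a median of 0.04, and that of all genes was −0.01. With both siRNAs 16 members (47.1%) were above the control, against 32.1% of all genes, and 11 (32.4%) were below, against 38.3%. No member was 2-fold above or below with both, and 0.377% and 0.358% of all genes were.

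PEX13, of the docking complex, was at 4.58 FPKM in the H660 control and at 7.09 and 7.25 FPKM with the siRNAs, 155% (95% interval 140% to 171%) and 158% (144% to 175%) of the control. These intervals cover counting error only. ACADM was at 9.25, 11.6 and 13.0 FPKM, PEX3 at 8.04, 9.73 and 10.1 FPKM, and PEX2 at 17.9, 21.4 and 21.6 FPKM. Each of these had both knockdown libraries above the control. On the other side AMACR was at 2.86, 1.89 and 2.06 FPKM, ECHS1 at 36.9, 31.2 and 31.3 FPKM, ETFB at 1.74, 1.46 and 1.28 FPKM and PEX19 at 12.9, 10.8 and 11.7 FPKM. The siRNAs differed little from each other: 0 of 34 members were 1.5-fold apart on the log2(FPKM + 1) scale, against 5.28% of all genes, and the widest gap was that of ACADSB, at 2.88 and 1.96 FPKM.

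In C4-2B MDVR, PEX10 and ACADL, the genes that led to the list, were the 2 members at least 2-fold below the control with both siRNAs. Of all genes 0.39% were. The members' share, 5.88%, came from the choice of the list and is not a result. No member was 2-fold above with both, against 0.671% of all genes. Limma called 0 of 15638 genes in this contrast (0.0%), with 921 (5.89%) at an unadjusted p under 0.05, and voom called 0 with 988 at that level. PEX10 lies on chromosome 1 from 2403964 to 2413797 (GRCh38, minus strand). It was at 23.9 FPKM in the control, from 1878 fragments, and at 9.53 and 9.31 FPKM with the siRNAs, 39.9% (95% interval 36.5% to 43.4%) and 38.9% (35.4% to 42.8%) of the control. The siRNAs lay close together, and in the 3 H660 libraries PEX10 was at 7.61, 6.85 and 7.96 FPKM. In the annotation 39.1% of the exon length of PEX10 lies over exons of RER1 on the other strand. RER1, a retrieval receptor of the Golgi, was at 35.8, 38.0 and 32.3 FPKM in the same 3 libraries. Whether the counting used strand is not stated.

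ACADL, the dehydrogenase for long and branched chains, lies on chromosome 2 from 210187939 to 210225491 (minus strand). It was at 7.50 FPKM in the C4-2B MDVR control, from 682 fragments, and at 1.53 and 2.01 FPKM with the siRNAs, 20.4% (95% interval 16.8% to 24.5%) and 26.8% (22.2% to 32.1%) of the control. In H660 it was at 1.86, 2.38 and 2.04 FPKM. The 5 libraries other than the C4-2B MDVR control thus lay between 1.53 and 2.38 FPKM. That control was also the library with the low mitochondrial share given above, and the part of this in the PEX10 and ACADL values was not tested. Without the control of either line, the line difference of ACADL turned from −0.38 to 0.22.

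The other members did not share this pattern. Next after them with both siRNAs below the control, and outside the 2-fold limit, came ACADSB, at 14.6, 12.5 and 11.3 FPKM, and PEX2, at 10.9, 8.88 and 9.29 FPKM. Of 34 members, 17 were above the control with both siRNAs (all genes 32.0%) and 8 below (23.5%, all genes 25.8%). By the smaller of their 2 changes the first 4 of those above were PEX7 (8.52, 12.3 and 12.3 FPKM), HADHB (27.7, 41.7 and 38.1 FPKM), ETFA (53.5, 71.6 and 76.0 FPKM) and ETFB (8.004, 11.3 and 10.3 FPKM). The members' median was 0.18 log2 units for the mean of the siRNAs, and it was 0.22 with siRNA 1 and 0.01 with siRNA 2. The medians of all genes tested were 0.016, 0.008 and 0.013. In the list with branched-chain amino acid breakdown, MCCC2, a carboxylase subunit of leucine breakdown, was at 15.9, 6.03 and 7.33 FPKM, the 1 of 91 other pathway genes at least 2-fold below with both siRNAs; it is named after its values were seen.

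**Figure D4:**
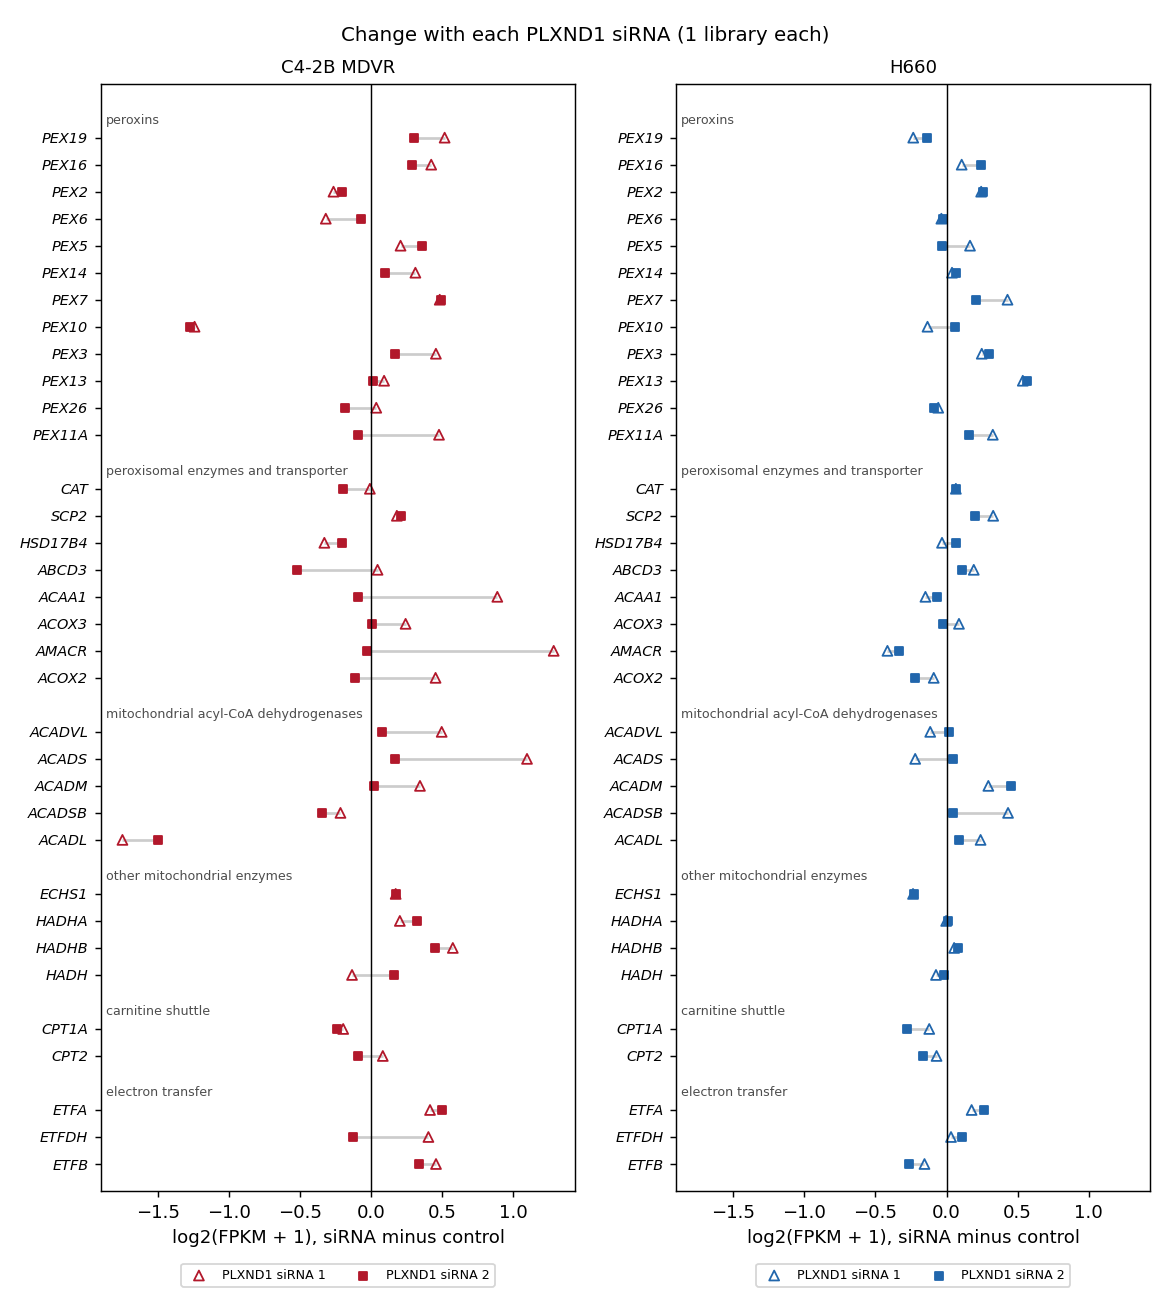
Change in log2(FPKM + 1) of each knockdown library from the control library of its line, C4-2B MDVR at left and H660 at right; triangles are siRNA 1, filled squares siRNA 2, and a grey bar joins them. PEX10 and ACADL stand alone at the left of the C4-2B MDVR panel with both siRNAs at least 2-fold below, and AMACR, ACADS and ACAA1 show the widest gaps between siRNAs.

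The siRNAs parted for 3 members in C4-2B MDVR (8.82%, against 15.8% of all genes), and siRNA 1 was the higher in all 3, as it was in 1255 of the 2463 such genes overall. AMACR was at 1.47 FPKM in the control, 4.998 FPKM with siRNA 1 and 1.41 FPKM with siRNA 2, so that siRNA 2 was at 28.3% of siRNA 1 (95% interval 22.8% to 34.8%). ACADS was at 27.0, 58.9 and 30.4 FPKM, with siRNA 2 at 51.7% (48.4% to 55.1%) of siRNA 1. ACAA1 was at 9.64, 18.7 and 8.98 FPKM, with siRNA 2 at 48.1% (44.7% to 51.7%) of siRNA 1. PEX11A was next, at 1.43, 2.38 and 1.28 FPKM. For AMACR and ACAA1 the siRNA 2 library lay close to the control. With 1 library for each siRNA, a difference between siRNAs and one between libraries cannot be told apart.

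The promoters of PEX10 and ACADL, shown because these members were low together, and of ECHS1 and ACADVL, at the ends of the mitochondrial line differences, differed in base composition and in the motifs they held. The windows run from 250 bases before to 50 after the start (RefSeq, GRCh38.p14): chr1:2413778-2414077 for PEX10, chr2:210225398-210225697 for ACADL and chr10:133373305-133373604 for ECHS1, on the minus strand, and chr17:7216875-7217174 for ACADVL, on the plus strand. Only the first window listed for each gene was used, and other start sites were not looked at. Capitals mark matches on either strand to any of 7 motifs.
PEX10: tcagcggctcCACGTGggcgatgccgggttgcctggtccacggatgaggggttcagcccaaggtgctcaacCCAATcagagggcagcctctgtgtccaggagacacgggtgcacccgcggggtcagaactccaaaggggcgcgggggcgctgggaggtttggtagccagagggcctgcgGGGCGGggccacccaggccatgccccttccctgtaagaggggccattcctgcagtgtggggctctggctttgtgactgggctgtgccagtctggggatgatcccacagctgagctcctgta
ACADL: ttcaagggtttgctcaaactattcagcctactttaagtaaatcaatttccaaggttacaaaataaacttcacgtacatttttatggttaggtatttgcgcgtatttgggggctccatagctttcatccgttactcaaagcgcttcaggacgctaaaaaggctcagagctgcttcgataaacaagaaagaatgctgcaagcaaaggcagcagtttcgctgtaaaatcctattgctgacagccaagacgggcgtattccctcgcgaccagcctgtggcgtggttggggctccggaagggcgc
ECHS1: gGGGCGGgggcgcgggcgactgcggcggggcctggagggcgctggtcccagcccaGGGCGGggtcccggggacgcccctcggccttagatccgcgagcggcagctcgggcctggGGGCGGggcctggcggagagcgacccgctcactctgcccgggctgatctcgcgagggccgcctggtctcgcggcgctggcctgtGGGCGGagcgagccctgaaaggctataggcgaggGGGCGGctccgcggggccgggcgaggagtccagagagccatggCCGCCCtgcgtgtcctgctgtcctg
ACADVL: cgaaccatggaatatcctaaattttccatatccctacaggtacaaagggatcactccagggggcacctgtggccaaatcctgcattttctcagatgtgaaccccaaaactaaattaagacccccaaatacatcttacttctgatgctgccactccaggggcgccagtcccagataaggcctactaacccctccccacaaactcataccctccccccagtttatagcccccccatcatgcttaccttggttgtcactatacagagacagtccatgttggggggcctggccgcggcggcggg
PEX10 held 1 GC box (GGGCGG), 1 CCAAT box (CCAAT) and 1 E-box (CACGTG), and its window was 66.3% G and C. ACADL held no match, at 46.7% G and C. ECHS1 held 6 GC boxes, at 78.0% G and C, and ACADVL no match, at 52.7%. Of the 34 members, 29 had a window in the table. GC boxes were in 21 of them (72.4%), against 44.6% of 27305 promoters, CCAAT boxes in 8 (27.6%, against 35.7%) and E-boxes in 1 (3.4%, against 7.4%). The hexamer of nuclear receptors (AGGTCA), the estrogen-related receptor element (TCAAGGTCA, which contains that hexamer) and the NRF1 element were in 0 of 29, against 13.9%, 0.4% and 1.4% of all. The cAMP response element (TGACGTCA) was in 1, ACOX3, against 2.0% of all. A match is a stretch of letters, not a bound site, and none says nothing beyond this window.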

How the data were processed

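Per the labels' protocols, messenger RNA was sequenced from both ends (150 bases each). The submitters' processing notes name HISAT, Cufflinks and the build hg18, without versions. The authors deposited FPKM for 58735 Ensembl IDs. All are in GENCODE release 29 (GRCh38), the source of the symbols, exon lengths and gene coordinates here. FPKM times exon length was a whole multiple of 1 step per library, within 0.05 fragments, for 100.0% of genes of at most 100 fragments, and fragments were recovered from that step. They gave the 95% exact binomial intervals (SciPy 1.17.1).

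The log2(FPKM + 1) values went into limma 3.58.1 (R 4.3.3, intensity trend, two-sided) for the 15638 genes with a mean of at least 1 FPKM in at least 1 line, with Benjamini-Hochberg adjustment over all of them. The pseudocount of 1 understates changes of low genes. For the line difference the fit had line and treatment as additive terms (3 residual degrees of freedom). Knockdown came from a fit of 4 groups (2 degrees), where lone controls are assumed to vary like the knockdown pairs. The scripts were tested on simulated data.

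Members and lists were chosen with earlier results of these data known. Named genes were PEX10, ACADL, called members (up to 6 each way), per line 4 in each direction for which both siRNAs moved alike, 4 with siRNAs farthest apart, and 3 each way per further list. Other members follow by role, and those named beyond the rule with values were chosen after these were seen. Alternatives were another pseudocount, no filter, 2 scalings, voom on fragments, the siRNA number as a block, no 2-fold minimum and each library left out. The planned protein features were not analysed here, and promoter motifs were looked at instead. Some genes of the further lists and markers are not reported here.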

Additional observations from a re-analysis of the deposited data

Results flagged for a closer look

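In 7 members both siRNAs lay on one side of the control in C4-2B MDVR and on the other side in H660. The differences were not tested. The share of all genes with such a pattern was not counted, so the 7 are not a result about the members. In C4-2B MDVR 32.0% of all genes were above the control with both siRNAs and 25.8% below, and in H660 32.1% and 38.3%. The difference of the mean change, H660 minus C4-2B MDVR, was 1.79 log2 units for ACADL, 0.52 for ACADSB, 0.49 for PEX2 and 0.17 for CAT, which were below the control in C4-2B MDVR. It was −0.60 for ETFB, −0.59 for PEX19 and −0.41 for ECHS1, which were above it there. Only for ACADL did a line's mean change reach 2-fold among these 7; that value, −1.62 in C4-2B MDVR, is of the contrast that chose the set.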

How the results depend on the processing

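For the 14 members called between the lines, 164 of 168 values under the alternatives stayed past the threshold in the same direction. The exceptions were those of PEX16 and PEX26 given above. These values are not all separate checks. Leaving out either control gives the same line estimate, and a block for siRNA number leaves the estimate of the main fit unchanged. Leaving out each library in turn put the members called lower in H660 at 10 to 11 and those called higher at 3 to 4, the genes called at 2710 to 2873 and 3104 to 3155, and the members' median at −0.73 to −0.68. Without a 2-fold minimum the members called were 20 lower and 6 higher, among 5408 and 5507 genes. The rescaling put the members' median at −0.43 between the lines and at 0.025 in H660, and the share of called genes that were higher in H660 went from 52.9% to 64.8% with it. Members that were not called changed sign: PEX3 (0.17), PEX13 (0.066), CPT2 (0.14) and AMACR (0.18) with the rescaling, PEX3 (0.054), CPT2 (0.043) and AMACR (0.15) with voom, and AMACR with a pseudocount of 0.1 (0.025). Leaving out single libraries put AMACR at −0.35 to 0.45 (highest without siRNA 1 of C4-2B MDVR), ABCD3 at −0.0825 to 0.25 (lowest without siRNA 2 of C4-2B MDVR) and ACADL at −0.62 to 0.22 (highest without either control). The cause was not tested. In H660 the members' median was 0.04 to 0.05 with libraries left out. In H660, 1 gene was called higher with a pseudocount of 0.1, quantile normalization, the rescaling or the replicate block, and none of these was a member. With no filter 47 genes were called higher and 829 lower in H660, and 33 and 818 in C4-2B MDVR, where the tests also covered genes near 0; no member was called in H660. In C4-2B MDVR the members' median ran from 0.0091, without siRNA 1, to 0.22, without siRNA 2. With a replicate block for siRNA number, 11 members were lower and 3 higher between the lines, among 2831 and 3162 genes. The deviations of siRNA 1 from siRNA 2 did not go together between lines (correlation −0.0043 over genes). The knockdown effect in a line could not be fitted without that line's control. By their lowest library the members with the fewest fragments were PEX11A (66), ACOX2 (89) and AMACR (111), where depth limits most.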

Other observations

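Of 21 tested regulators and known targets of fatty acid oxidation, 3 were called lower in H660 (14.3%) and 5 higher (23.8%), near the shares of all genes (17.9% and 20.1%). ANGPTL4, an inhibitor of lipoprotein lipase, was at 0.194 to 0.273 FPKM in C4-2B MDVR and 21.3 to 25.5 FPKM in H660 (4.30 ± 0.10 log2 units, limma adjusted p = 1.71e-06). PDK4, a kinase that turns off pyruvate dehydrogenase, was at 0.0213 to 0.109 and 9.07 to 13.8 FPKM (3.50 ± 0.15, limma adjusted p = 1.02e-05), and PLIN2, which coats lipid droplets, was at 0.0605 to 0.205 and 8.22 to 9.26 FPKM (3.15 ± 0.12, limma adjusted p = 7.39e-06). PPARG was at 1.78 to 1.85 FPKM in C4-2B MDVR and listed at 0 in all 3 H660 libraries.

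The fifth list held genes of branched-chain amino acid breakdown and other dehydrogenases that feed electron transfer flavoprotein. Of 10 tested, 3 were called lower in H660 (17.9% of all genes were) and 1 higher (20.1% of all genes were). IVD, of leucine breakdown, was at 25.5 to 33.5 FPKM in C4-2B MDVR and 5.29 to 6.67 FPKM in H660 (−2.19 ± 0.15, limma adjusted p = 5.77e-05). DBT, a subunit of the branched-chain dehydrogenase complex, and HIBCH, of valine breakdown, were lower by 1.99 and 1.36 log2 units, and DMGDH, of choline breakdown, was higher by 1.19.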
